A study of Mus musculus with 24 samples.

Results

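The 10 genes described here mark early stages of the oligodendrocyte lineage in the mouse brain. They were chosen by name and Ensembl identifier as 5 markers of oligodendrocyte precursor cells (Pdgfra, Cspg4, Ptprz1, Vcan and Cspg5) and 5 markers of committed precursors and newly formed oligodendrocytes (Gpr17, Enpp6, Bcas1, Itpr2 and Fyn). All 10 were found among the 18057 genes of the deposited table. Expression was measured on Affymetrix mouse arrays in the frontal lobe of 24 mice, 1 array per mouse and 6 mice per group. By their labels the groups were Arg1 knockouts given a viral treatment (TR), untreated Arg1 knockouts (KO), Arg1 heterozygotes (HE) and wild types (WT). Arg1 encodes arginase 1, the last enzyme of the urea cycle, which acts mainly in the liver, and the study's title ties hepatic arginase deficiency to dysmyelination of the developing central nervous system. The labels give no vector, dose or time for the viral treatment, no strain, no sex and no design of the knockout allele.

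The positions are those of the whole genes in RefSeq (GRCm38.p6). Pdgfra is ENSMUSG00000029231 at chr5:75151322-75198206, and Cspg4 is ENSMUSG00000032911 at chr9:56865104-56899870. Ptprz1 is ENSMUSG00000068748 at chr6:22875315-23052916, Vcan is ENSMUSG00000021614 at chr13:89655309-89743027, and Cspg5 is ENSMUSG00000032482 at chr9:110243783-110262576. Gpr17 is ENSMUSG00000052229 at chr18:31942999-31949890, and Enpp6 is ENSMUSG00000038173 at chr8:46939197-47096762. Bcas1 is ENSMUSG00000013523 at chr2:170343973-170427911, Itpr2 is ENSMUSG00000030287 at chr6:146108299-146502258, and Fyn is ENSMUSG00000019843 at chr10:39369743-39565381.

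The labels place the arrays in 3 batches with 3 arrays per group in each. Batch 1 held KO and WT, and batch 2 held TR and HE. In each of them a group had 1 mouse aged 13 days, 1 aged 14 and 1 aged 15. All 4 groups were in batch 3, where every mouse was 14 days old. The mean of a gene differed little between batches although they hold different groups, by a median of 0.013 log2 between batches 1 and 3, 0.0215 between batches 2 and 1 and 0.0175 between batches 2 and 3. The deposited values may therefore have been adjusted by batch without regard to group, which no label states, and levels of different batches cannot be set against each other. Levels are compared within a batch, and batch entered every fitted difference. Array medians lay between 6.71 and 6.79 log2. KO replicate 1 stood apart in a principal component analysis, at -27.99 on the leading axis, where the remaining KO arrays lay between -11.55 and -5.03.

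The identifier ENSMUSG00000019987 was to serve as the check of the targeted gene, but no source used here pairs it with a name, so whether it is Arg1 was not established. In batch 3 it averaged 7.35 ± 0.113 log2 in TR, 7.08 ± 0.283 in KO, 6.71 ± 0.261 in HE and 4.35 ± 0.433 in WT (SD, n = 3). In batch 1 it averaged 7.86 ± 0.0712 in KO, against 4.16 ± 0.296 in WT. In batch 2 it averaged 7.12 ± 0.0803 in TR, against 6.37 ± 0.0425 in HE. Its level was thus higher in the arrays labelled knockout than in those labelled wild type, the opposite of a lost transcript. If it is the targeted gene, its signal goes against a loss of the RNA in the arrays labelled KO, and the labels do not say where its probes lie relative to the deleted part. The knockout labels were therefore not checked by the targeted gene, and TR, KO, HE and WT stand throughout for the arrays so labelled.

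Oligodendrocyte precursors divide under platelet-derived growth factor and carry chondroitin sulfate proteoglycans on their surface. As they commit to differentiation they pass through a short stage marked by the receptor GPR17, and newly formed oligodendrocytes then switch on ENPP6 and BCAS1 before they wrap axons. In the mouse forebrain this transition is under way in the second postnatal week, the age sampled here. Several of the 10 genes are also used by other cells. PTPRZ1 is abundant in astrocytes, CSPG4 occurs in pericytes, PDGFRA in fibroblasts of the meninges, and CSPG5 and FYN in neurons. In a piece of whole tissue, fewer cells of a type and less RNA per cell cannot be told apart. Marker lists for astrocytes, neurons, microglia, vessels and mature oligodendrocytes were not analysed here, because no table used here pairs the Ensembl identifiers with gene names.

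Promoter windows from RefSeq (GRCm38.p6) were examined for 7 of the 10 genes, which leaves out Gpr17, Cspg5 and Bcas1. The 250 bases upstream of the RefSeq start are shown for Ptprz1 and Enpp6, which were lower in KO, and for Pdgfra, the defining precursor marker, which was not called. For all 3 genes the tabled start lies inside the span of the gene given above, so other starts exist. The Ptprz1 window lies at chr6:22875252-22875501, the Enpp6 window at chr8:46986637-46986886 and the Pdgfra window at chr5:75152001-75152250, all on the plus strand. Capitals mark CG dinucleotides.
Ptprz1: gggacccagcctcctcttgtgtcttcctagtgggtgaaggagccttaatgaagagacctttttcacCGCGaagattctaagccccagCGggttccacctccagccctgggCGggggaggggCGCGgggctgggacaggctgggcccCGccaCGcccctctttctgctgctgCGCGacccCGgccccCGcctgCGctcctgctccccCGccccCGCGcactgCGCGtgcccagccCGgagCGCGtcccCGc
Enpp6: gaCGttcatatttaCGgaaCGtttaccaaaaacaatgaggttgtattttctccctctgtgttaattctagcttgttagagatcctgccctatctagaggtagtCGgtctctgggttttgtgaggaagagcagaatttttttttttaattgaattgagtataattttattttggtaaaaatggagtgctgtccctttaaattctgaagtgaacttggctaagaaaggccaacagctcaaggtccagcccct
Pdgfra: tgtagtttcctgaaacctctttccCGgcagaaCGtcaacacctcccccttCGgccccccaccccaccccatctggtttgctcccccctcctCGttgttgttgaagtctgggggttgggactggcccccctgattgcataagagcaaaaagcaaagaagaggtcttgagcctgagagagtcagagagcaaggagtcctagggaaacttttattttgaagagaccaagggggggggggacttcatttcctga
The Ptprz1 window held 22 CG dinucleotides and 71.6% G and C. The Enpp6 window held 4 and 38.4%, and the Pdgfra window held 4 and 54.4%, where the median of 32851 RefSeq windows was 6 and 52.4%. Both strands were searched for CAGCTG, an E-box of the kind bound by basic helix-loop-helix factors, and for the exact letters ACAAAG, a form of the SOX core. Neither CAGCTG nor ACAAAG occurred in any of the 7 windows, while 13.0% and 16.5% of all windows held them. Other forms were not searched, and the Enpp6 window holds the similar letters ACAATG. The absence of these letters from 250 bases says nothing about binding elsewhere. Ptprz1 thus had a window rich in CG and Enpp6 one poor in it. Genes that were not called spanned the same range, with 22 in Itpr2, 21 in Fyn, 12 in Cspg4, 10 in Vcan and 4 in Pdgfra. The promoter of Gpr17, also lower in KO, was not examined.

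KO was set against WT to read how these markers differed between the arrays labelled knockout and wild type. Ptprz1, Gpr17 and Enpp6 were lower in KO, and none of the other 7 genes passed the test. The change was 1.35-fold for Ptprz1, 1.33-fold for Gpr17 and 1.48-fold for Enpp6. The 3 lower genes were 1 of 5 precursor markers and 2 of 5 committed or newly formed markers. Of all 18057 genes 4.48% were called lower in KO, 3.49% higher and 7.97% in either direction, at a limma adjusted p (Benjamini-Hochberg over all genes) under 0.05. Pdgfra and Cspg4, the standard markers of precursor cells, differed by 0.05 ± 0.073 and 0.06 ± 0.0776 log2 (SE, 6 arrays per group).

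Ptprz1 encodes a receptor-type tyrosine phosphatase whose extracellular part carries chondroitin sulfate and binds pleiotrophin. In batch 1 it read 10.60, 10.61 and 10.34 log2 in KO at days 13, 14 and 15, against 11.09, 10.96 and 10.95 in WT. In batch 3 it read 10.60, 10.30 and 10.44 in KO, against 10.79, 10.80 and 10.90 in WT. The KO arrays lay below all WT arrays in both batches. This was so for 13.7% of all genes in batch 1 and 9.02% in batch 3. The fitted difference was -0.43 ± 0.0674 log2 (SE, 6 arrays per group), with a limma adjusted p of 0.00018. It was -0.49 in batch 1 and -0.38 in batch 3, and over the 37 alternative settings it stayed between -0.49 and -0.37 with an adjusted p of at most 0.0317.

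Gpr17 encodes a G protein-coupled receptor that is switched on in committed precursors and switched off as they mature. In batch 1 it read 9.17, 9.56 and 9.31 log2 in KO at days 13, 14 and 15, against 9.91, 9.93 and 9.90 in WT. In batch 3 it read 9.50, 9.43 and 9.16 in KO, against 9.53, 9.65 and 9.70 in WT. Again no KO array reached the lowest WT array of its batch. The fitted difference was -0.41 ± 0.0818 log2 (SE, 6 arrays per group, limma adjusted p 0.0021). It was -0.57 in batch 1 and -0.26 in batch 3.

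Enpp6 encodes a choline-specific glycerophosphodiesterase and is a marker of oligodendrocytes that have just begun to differentiate. In batch 1 it read 8.31, 9.01 and 9.16 log2 in KO at days 13, 14 and 15, against 9.62, 9.64 and 9.38 in WT. In batch 3 it read 8.69, 9.17 and 8.62 in KO, against 9.01, 9.27 and 9.41 in WT. The groups were apart in batch 1 and overlapped in batch 3, where KO replicate 2 lay above the lowest WT array. The fitted difference was -0.56 ± 0.129 log2 (SE, 6 arrays per group, limma adjusted p 0.00736), at -0.72 in batch 1 and -0.40 in batch 3. Batch 3 on its own called Ptprz1 and neither Gpr17 (limma adjusted p 0.248) nor Enpp6 (0.293). The day 14 arrays alone also called only Ptprz1 of the 10. Both settings called far fewer of all genes than the main fit, which called 7.97%. Batch 1 on its own has fewer arrays than either setting, yet it called Ptprz1, Gpr17 and Enpp6. It also called more of all genes than either setting. Why Gpr17 and Enpp6 lost their calls in batch 3 and on day 14 was not tested. Without KO replicate 1, and without any other single array, the same 3 genes were called.

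**Figure D1:**
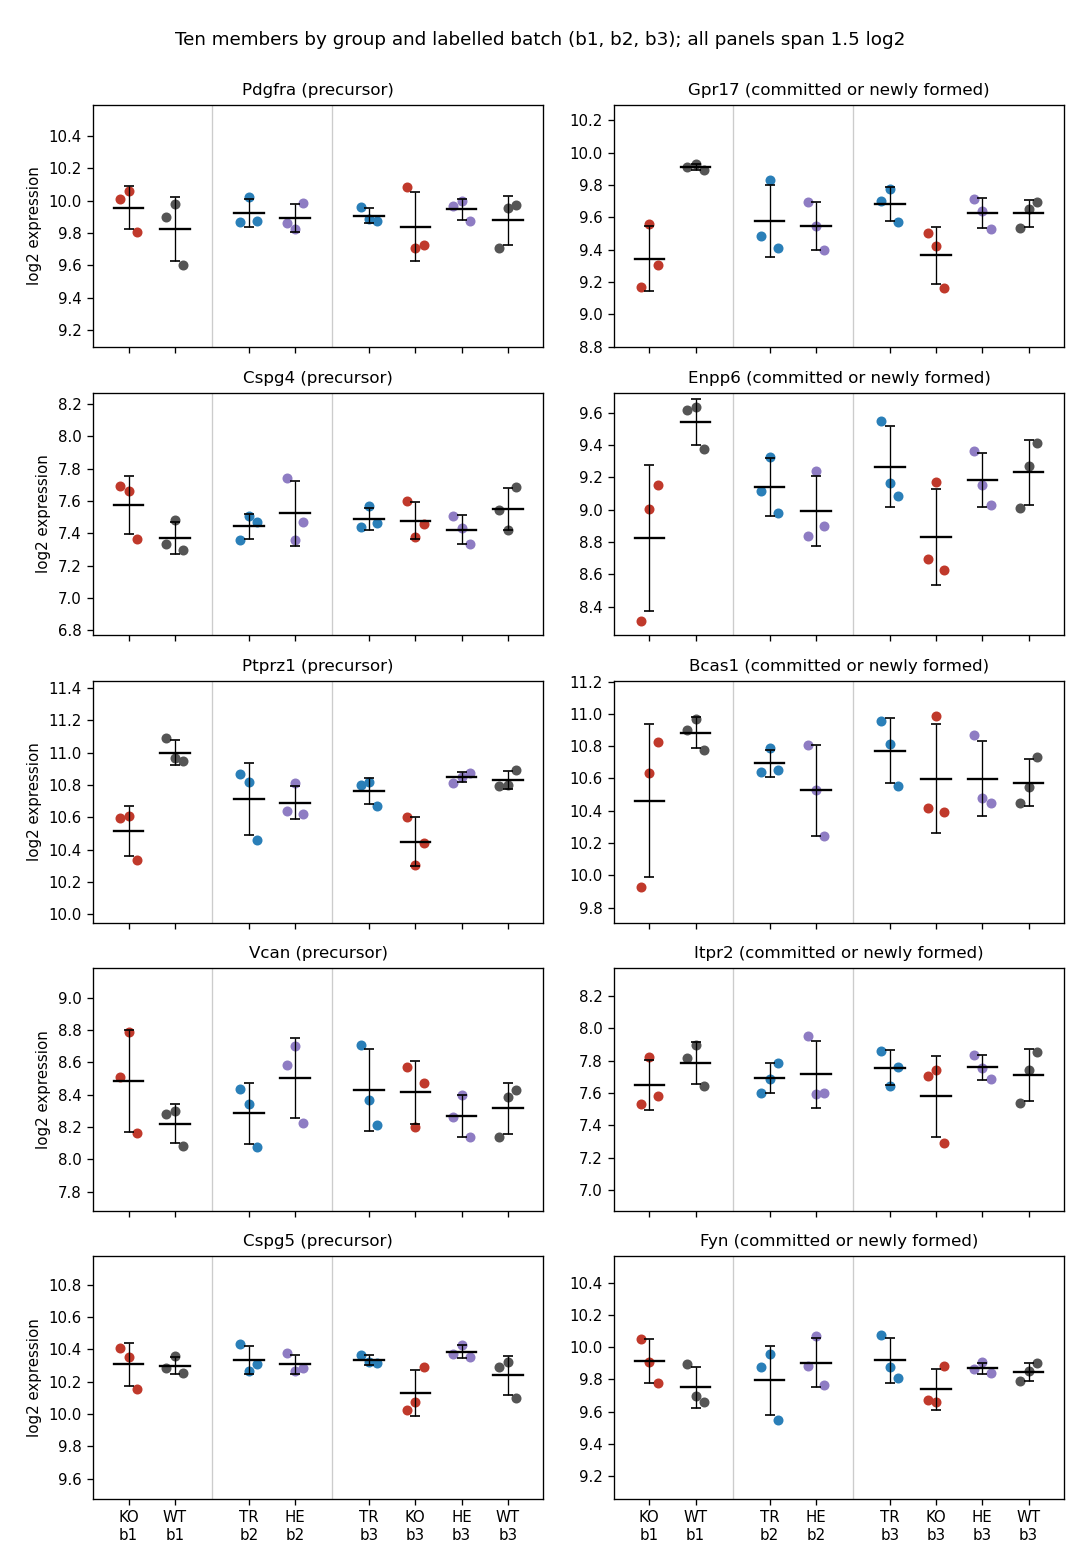
Log2 expression of the 10 genes by group and labelled batch (b1, b2, b3), with 1 point per array, the mean as a bar and the SD as whiskers (n = 3). KO points of Ptprz1 and Gpr17 lie below all WT points of their batch, while those of Pdgfra and Cspg4 overlap with WT.

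The other precursor markers showed no called change. Pdgfra, the receptor for platelet-derived growth factor that defines the stage, had a 95% interval of -0.11 to 0.20 log2 for KO minus WT. Cspg4, the NG2 proteoglycan, had an interval of -0.10 to 0.23. Vcan, the matrix proteoglycan versican, measured 0.18 ± 0.113 and Cspg5, a transmembrane proteoglycan with an EGF-like domain, measured -0.05 ± 0.055 (SE, 6 arrays per group). The intervals of Pdgfra and Cspg4 leave out a decrease as large as that fitted for Gpr17. In batch 3 Pdgfra read 10.08, 9.71 and 9.72 in KO, against 9.71, 9.96 and 9.98 in WT, so that KO replicate 1 held both groups' highest value.

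Among the committed and newly formed markers, Bcas1, a protein of early myelinating oligodendrocytes, measured -0.20 ± 0.135 log2 in KO minus WT. Its batches went apart, at -0.42 in batch 1 and 0.03 in batch 3. Itpr2, an endoplasmic reticulum calcium channel, measured -0.14 ± 0.0825, with -0.14 in batch 1 and -0.13 in batch 3. Fyn, a Src-family kinase that promotes process outgrowth and myelin gene expression, measured 0.03 ± 0.0769 (SE, 6 arrays per group). Fyn shares chromosome 10 with Arg1 and lies 14.4 Mb from it (GRCm38.p6), and it was not called in any comparison. The median over the 5 committed and newly formed markers was -0.20 log2 and over the 5 precursor markers 0.05, with -0.01 over all genes. In a contrast of the batches none of the 10 genes passed for KO minus WT (limma, 0% of all genes called). At an unadjusted p under 0.05 there were 0 of the 10 and 1591 of all 18057 genes.

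The differences were also expressed relative to the precursor marker Pdgfra. The Pdgfra value of each array was subtracted from all other genes, which were fitted again, a step added after the differences were known. Relative to Pdgfra, Ptprz1 was lower in KO by -0.48 ± 0.0911 log2, Gpr17 by -0.46 ± 0.101 and Enpp6 by -0.61 ± 0.135 (SE, 6 arrays per group). The limma adjusted p over 18056 genes was 0.00114, 0.00567 and 0.00658, and 2.66% of those genes were called, 1.64% lower. Cspg4, Vcan, Cspg5, Bcas1, Itpr2 and Fyn did not pass, with adjusted p between 0.47 and 0.973. A difference in Pdgfra on 1 array enters every one of these values. Pdgfra itself differed by 0.05 log2 in KO minus WT, so these values largely restate the differences above. They are not separate support for them.

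TR was set against KO to read how knockouts labelled treated and untreated differed, and only batch 3 holds both groups. Ptprz1 and Gpr17 were higher in TR, by 1.29-fold and 1.31-fold, and 8 of the 10 genes did not pass. Of all genes 1.63% were called higher in TR and 3.11% in either direction. These values share the KO arrays with the comparison above, so the 2 sets of differences are not independent. Ptprz1 read 10.80, 10.82 and 10.67 log2 in TR of batch 3, against 10.60, 10.30 and 10.44 in KO. Gpr17 read 9.70, 9.78 and 9.57 in TR, against 9.50, 9.43 and 9.16 in KO. For both genes every TR array lay above every KO array of the batch, as it did for 10.3% of all genes.

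The fitted difference between TR and KO was 0.37 ± 0.0825 log2 for Ptprz1 (limma adjusted p 0.0148) and 0.39 ± 0.1 for Gpr17 (0.0328; SE, 6 arrays per group). In batch 3 the differences were 0.31 and 0.32. Both calls were lost when batch was left out of the model or taken as a random block, with limma adjusted p of at most 0.296 for Ptprz1 and 0.355 for Gpr17. Fitted within batch 3 alone they had a limma adjusted p of 0.0769 and 0.132, and the call of Gpr17 was also lost without KO replicate 3 (0.0713), TR replicate 1 (0.0761) or TR replicate 2 (0.101). Enpp6 read 9.55, 9.16 and 9.08 in TR, against 8.69, 9.17 and 8.62 in KO, with 1 KO array inside the range of TR. Its difference of 0.53 ± 0.158 had a limma adjusted p of 0.0637. It was past the threshold without KO replicate 2 (0.672 log2, 0.0167) and without KO replicate 4 (0.466 log2, 0.0418), with array weights (0.034) and with the dimmer genes left out (0.0436). Relative to Pdgfra, none of the 3 genes passed between TR and KO (limma adjusted p 0.217 to 0.267), where 0.881% of genes were called and 0.155% were called higher.

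Cspg5 read 10.37, 10.32 and 10.31 in TR of batch 3, against 10.02, 10.07 and 10.29 in KO. The groups did not overlap, but the fitted difference of 0.19 ± 0.0674 log2 did not pass (limma adjusted p 0.121). Pdgfra measured 0.04 ± 0.0894, Cspg4 -0.09 ± 0.095 and Vcan -0.12 ± 0.139 in TR minus KO. Bcas1, Itpr2 and Fyn measured 0.28 ± 0.165, 0.18 ± 0.101 and 0.07 ± 0.0942 (SE, 6 arrays per group). All 5 committed and newly formed markers were above 0, with a median of 0.28 log2, where the median of all genes was 0.02. Only Gpr17 of them passed the test.

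**Figure D2:**
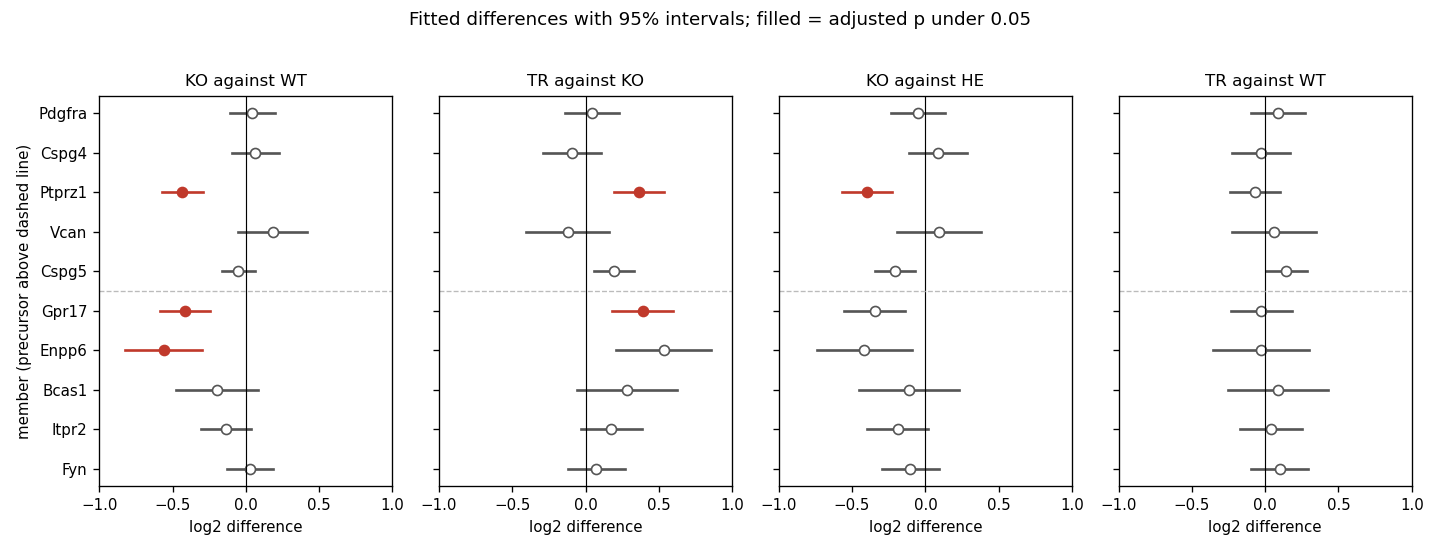
Fitted log2 differences of the 10 genes with 95% intervals in 4 comparisons, with filled red points where the limma adjusted p was under 0.05. Ptprz1, Gpr17 and Enpp6 lie below 0 in KO against WT, and the intervals of TR against WT cross 0 for each gene except Cspg5.

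KO was also set against HE, which batch 3 holds beside it. Of the 10 genes Ptprz1 alone was lower in KO, with a difference of -0.40 ± 0.0825 log2 (SE, n = 6 per group) and a limma adjusted p of 0.00935. Of all genes 1.98% were called, and 1.04% were called lower. The 3 KO arrays, at 10.60, 10.30 and 10.44, lay below the HE arrays at 10.81, 10.85 and 10.88. The call was lost when batch was left out or taken as a random block, with a limma adjusted p of at most 0.163. Gpr17 measured -0.35 ± 0.1 and Enpp6 -0.42 ± 0.158, with limma adjusted p of 0.074 and 0.196. Gpr17 was past the threshold when KO replicate 1, KO replicate 2 or TR replicate 5 was left out, which made the count 2. Cspg5 measured -0.21 ± 0.0674 (adjusted p 0.12), and its KO and HE arrays did not overlap in batch 3, as was so in this direction for 8.7% of all genes. The differences of Pdgfra, Cspg4, Vcan, Bcas1, Itpr2 and Fyn had limma adjusted p of 0.42 to 0.875.

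TR and WT were compared to see what stays different in treated knockouts. None of the 10 genes passed in limma, and 0.00554% of all genes were called. An unadjusted p under 0.05 was found for 1 of the 10 and for 1033 of all 18057 genes. TR minus WT was -0.07 log2 for Ptprz1 with a 95% interval of -0.24 to 0.10. It was -0.02 for Gpr17 (-0.23 to 0.18) and -0.03 for Enpp6 (-0.35 to 0.30). For Ptprz1 and Gpr17 these intervals leave out the differences of -0.43 and -0.41 fitted for KO, and for Enpp6 the interval leaves out -0.56. The KO differences carry intervals of their own, and for Enpp6 that of KO minus WT, -0.83 to -0.30, overlaps the interval of TR minus WT. Of the 10, the gene under 0.05 unadjusted was Cspg5, at 0.14 ± 0.0674 log2 (SE, 6 arrays per group, limma adjusted p 0.85).

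Neither TR against HE nor HE against WT gave a call among these genes. Between TR and HE none of the 10 genes passed in limma, and 0% of all genes were called. None of the 10 had an unadjusted p under 0.05, while 792 of all 18057 genes did. The differences of the 10 lay between -0.03 and 0.17 log2, the highest being that of Bcas1. HE and WT share only batch 3. Between them 0.00554% of all genes were called in limma, and 771 of 18057 had an unadjusted p under 0.05. None of the 10 genes passed, and 1 had an unadjusted p under 0.05. That gene was Cspg5, at 0.16 ± 0.0674 log2 (SE, 6 arrays per group), where the HE arrays of batch 3 lay above all WT arrays, as they did for 4.43% of all genes. Ptprz1, Gpr17 and Enpp6 measured -0.04, -0.07 and -0.14 in HE minus WT.

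In batch 3, where the 4 groups can be set side by side, Ptprz1 averaged 10.76 ± 0.0813 in TR, 10.45 ± 0.151 in KO, 10.85 ± 0.031 in HE and 10.83 ± 0.0563 in WT (SD, n = 3, log2). Gpr17 averaged 9.68 ± 0.104 in TR, 9.36 ± 0.179 in KO, 9.63 ± 0.0939 in HE and 9.63 ± 0.0838 in WT. Enpp6 averaged 9.27 ± 0.251 in TR, 8.83 ± 0.298 in KO, 9.18 ± 0.168 in HE and 9.23 ± 0.202 in WT. KO held the lowest mean in each case, and the ranges of TR, HE and WT overlapped. For Pdgfra the means were 9.91 ± 0.0468 in TR, 9.84 ± 0.213 in KO, 9.95 ± 0.0659 in HE and 9.88 ± 0.15 in WT, and the ranges of all 4 groups overlapped.

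Batches 1 and 2 sampled 3 successive days with 1 array per group and day, so that a course over age could be fitted within groups. Fyn, Vcan, Ptprz1 and Cspg5 read lower at day 15 than at day 13 in all 4 groups. Their slopes were -0.12 ± 0.0372, -0.16 ± 0.0518, -0.10 ± 0.0366 and -0.06 ± 0.0284 log2 per day (SE, 12 arrays). None of the 10 slopes passed in limma (adjusted p 0.13 for Fyn, 0.15 for Vcan, 0.176 for Ptprz1 and 0.301 for Cspg5), and 1.43% of all genes were called, 0.543% with a negative slope. An unadjusted p under 0.05 was found for 4 of the 10 and for 2873 of all 18057 genes. Pdgfra, Cspg4, Gpr17, Enpp6, Bcas1 and Itpr2 had no common direction over the groups.

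For Enpp6 and Bcas1 the groups shared no common course on these few arrays. Day 15 minus day 13 was 0.84 log2 for Enpp6 in KO, against -0.24 in WT of the same batch. In batch 2 it was -0.13 in TR, against 0.06 in HE. For Bcas1 it was 0.90 in KO, against -0.12 in WT, and 0.01 in TR, against -0.56 in HE. Bcas1 read 9.92, 10.64 and 10.83 in KO at days 13, 14 and 15, against 10.90, 10.97 and 10.78 in WT. The day 13 KO array was the lowest of all 24 arrays for both genes, and it is 1 animal. The difference between these courses was not tested.

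**Figure D3:**
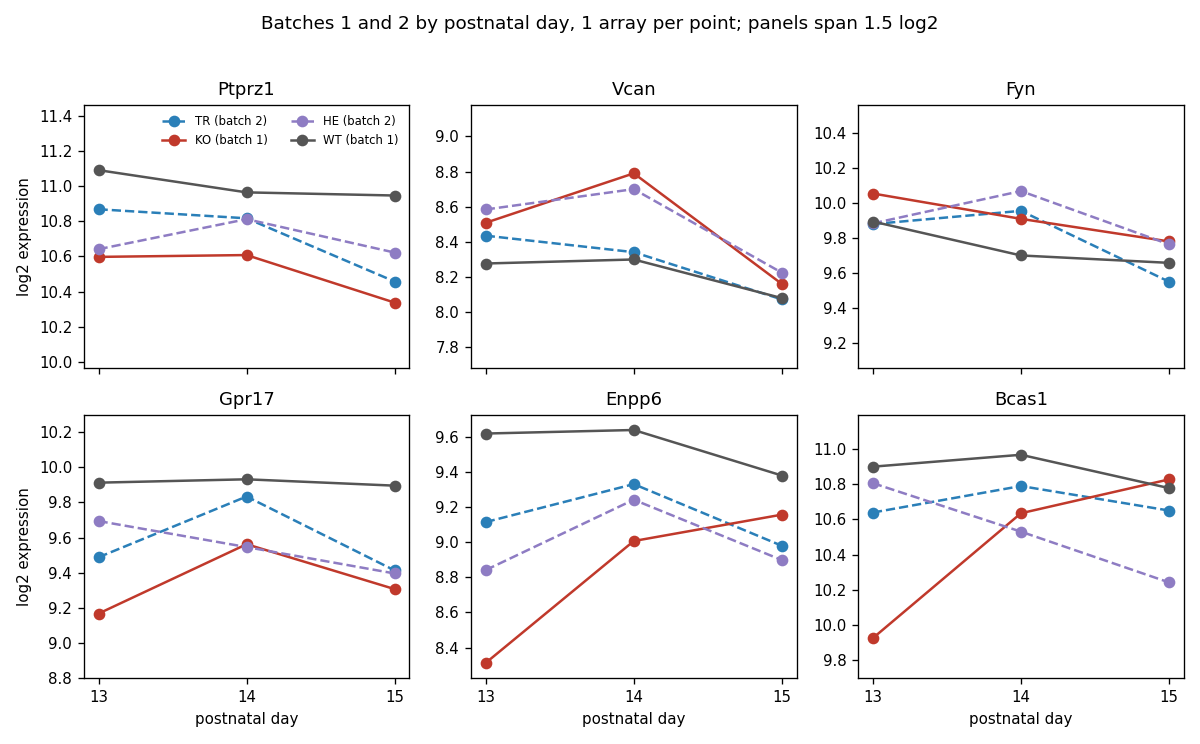
Log2 expression of 6 of the genes by postnatal day in batches 1 and 2, with 1 array per point, solid lines for batch 1 and dashed lines for batch 2. Vcan and Fyn end lower at day 15 than at day 13 in each group, and Enpp6 and Bcas1 start low in KO at day 13.

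The genes also varied together between mice of the same group and batch, which is given as a description over 24 arrays that share normalization. Postnatal day was not removed, and in batches 1 and 2 it differed among the mice of each group. Ptprz1, Vcan, Fyn and Cspg5 read lower at day 15 than at day 13 in all 4 groups. How much of their correlation goes with age was not tested. After the mean of each group and batch was removed, Enpp6 and Bcas1 correlated at Pearson r = 0.82. The values were 0.62 for Gpr17 and Itpr2, 0.61 for Gpr17 and Bcas1 and 0.53 for Gpr17 and Enpp6. For Bcas1 and Itpr2 the value was 0.58, and for Enpp6 and Itpr2 it was 0.41. Fyn stood outside this set, at 0.16 with Gpr17 and -0.08 with Bcas1, and went with Ptprz1 (0.73) and Vcan (0.70) instead. Ptprz1 and Vcan correlated at 0.74, and Pdgfra with Cspg4 at 0.52 and with Vcan at 0.53. Cspg5 correlated with Enpp6 at -0.44. Other pairs across the stages were positive, as Itpr2 with Pdgfra (0.49) and Cspg4 (0.46) and Gpr17 with Vcan (0.46). The median over the 10 pairs of committed and newly formed markers was 0.47, over the 10 pairs of precursor markers 0.34 and over the 25 pairs across the stages 0.08.

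**Figure D4:**
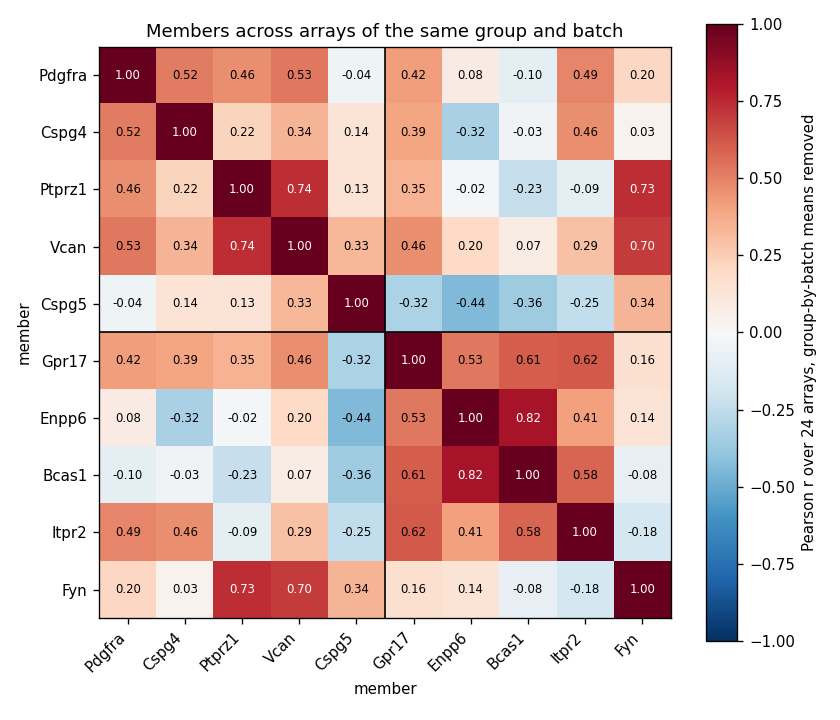
Pearson correlation between the 10 genes over 24 arrays after the mean of each group and batch was removed, with precursor markers left of and above the black lines. Gpr17, Enpp6, Bcas1 and Itpr2 correlate with each other, and so do Ptprz1, Vcan and Fyn. Itpr2 also correlates with Pdgfra and Cspg4, and Gpr17 with Vcan. Postnatal day was not removed.

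With only the batch means removed, the gene of the table most like Ptprz1 was ENSMUSG00000024411 (r = 0.95 over 24 arrays), which was lower in KO than in WT by -0.68 ± 0.0865 log2 (SE, 6 arrays per group). ENSMUSG00000004902 followed at r = 0.87, with -0.91 ± 0.112 in KO minus WT. ENSMUSG00000031385 was the gene most like Enpp6 (r = 0.88) and the second most like Gpr17 (r = 0.79), at -0.60 ± 0.115 in KO minus WT. None of these identifiers is paired with a name in the sources used here, and which cells the difference of Ptprz1 comes from was not tested. These correlations hold the differences between the groups as well as those between mice.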

How the data were processed

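RNA from 24 frontal lobes was hybridized to Affymetrix arrays after oligo(dT)-primed amplification, per the labels' protocols, so values report the 3' ends of transcripts. The deposited table holds log2 values, 1 per Ensembl gene and array, made by the authors with affy and RMA, per the submitters' processing notes. Software versions, the rule that joined probes into genes, and batch adjustment are each not given in the sources used here. Precision is limited by the number of arrays.

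All 18057 genes entered a linear model in limma 3.58.1 (R 4.3.3) without a filter, with 4 groups and 3 batches as fixed terms over 24 arrays and an intensity trend (18 residual degrees of freedom, prior 6.04). Tests were two-sided, and p-values were adjusted by Benjamini-Hochberg over all genes, with calls under 0.05. The age slope used the 12 arrays of batches 1 and 2 with group as a term, and the contrast of batches used means per group and batch. The code was tested on simulated data. Alternatives covered the batch term, samples, normalization, array weights, trend, age, a filter on dim genes and each array left out.

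The 10 genes and lists were chosen with earlier results of these data known. Replicates are numbered in order of deposition, and nothing in the labels ties p-values to more than the spread between these mice. Gene names are those of the selection rule, and positions were matched by symbol to RefSeq (GRCm38.p6). The rule for named genes took the 10 genes in every comparison, and up to 3 genes of highest correlation with each gene called between KO and WT, of which 3 are given. The marker lists of other cell types were not used.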

Additional observations from a re-analysis of the deposited data

How the results depend on the processing

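For KO against WT the count of called genes was 3, and it was 1 within batch 3 alone and 1 with day 14 arrays only. Both settings keep fewer arrays and called far fewer of all genes than the main fit. Batch 1 alone keeps fewer arrays still, yet its count stayed 3. It also called more of all genes than batch 3 alone or the day 14 arrays. Why the count fell in those settings was not tested. Leaving out 1 array at a time gave 3 to 3. For TR against KO the count of 2 became 0 within batch 3 alone, 0 when batch was a random block, 0 on the arrays of TR and KO by themselves and 0 when batch was left out, with 5, 3, 3 and 3 of the 10 genes at an unadjusted p under 0.05 in limma. It ran from 1 to 3 with 1 array left out. With batch left out, 28 of all genes were called in TR against KO, where the fit with batch called 561. For KO against HE the count of 1 became 0 when batch was a random block, 0 on the arrays of KO and HE by themselves and 0 when batch was left out (limma, 2, 2 and 3 at an unadjusted p under 0.05), and ran from 1 to 2. The cause was not tested. The counts of TR against WT, TR against HE, HE against WT, the age slope and the contrast of batches stayed 0 in limma under every alternative run.

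Among genes that were not called, KO minus WT turned sign within batch 1 for Cspg5 (0.00864), within batch 3 for Pdgfra (-0.0407), Cspg4 (-0.0723), Bcas1 (0.0251) and Fyn (-0.109), and with day 14 arrays for Pdgfra (-0.0103), Cspg4 (-0.00962) and Fyn (-0.0298). With 1 array left out it ran from -0.019 to 0.0595 for Fyn and from -0.0137 to 0.0842 for Pdgfra. TR minus KO turned sign within batch 3 for Cspg4 (0.0115) and Vcan (0.0147), and ran from -0.0144 to 0.112 for Pdgfra with 1 array left out. Ptprz1, Gpr17 and Enpp6 kept their direction in KO against WT and TR against KO under every alternative.

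Postnatal day within batch, used as a replicate block, left the count at 3 for KO against WT, 2 for TR against KO and 1 for KO against HE, and changed no call. Arrays of both groups from 1 day deviated from their groups with r of 0.042, -0.155 and 0.083 (batch 1, days 13 to 15) or 0.216, 0.248 and 0.157 (batch 2), and the labels tie no day to a shared litter. Array data give no counts, so signal over background was not assessed.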

Other observations

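No gene of the 10 had an array set apart from the other 5 of its group by Dixon's criterion, in 40 sets of 6 arrays where chance would give 2. The spread between mice of the same group and batch differed among the genes. Bcas1 had a residual SD of 0.263 log2 and Enpp6 of 0.255, which was above 94.5% of all genes. Cspg5 had 0.0932, above 16.6% of all genes.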
